A study of Mus musculus with 4 samples.

Results

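The troponin genes were read in muscle pieces dissected from mouse embryos at E13.5, in a study of how skeletal muscle bears on motor neurons, as every probe set that the platform annotation names with one of 8 symbols. These are the slow isoforms Tnnc1, Tnni1 and Tnnt1, the fast isoforms Tnnc2, Tnni2 and Tnnt3, and the cardiac isoforms Tnnt2 and Tnni3, with Tnnc1 serving as both the slow skeletal and the cardiac troponin C. They are 8 of 18193 genes and 12 of 45101 probe sets, and 6 of the 8 genes have 1 probe set. The groups were limb muscle of MyoD-null embryos, limb muscle of wild-type (WT) embryos, back muscle of embryos labelled Myf5-null and back muscle of WT embryos. All are labelled BALB/c, the labels name no further allele in the mutants, and they do not say how many embryos were pooled per array. Each group had 1 Affymetrix array, so no difference below has a replicate check, no p-value was computed, and the number of arrays limits the precision. Values are scaled MAS5 signals, a signal under 100 was set to that floor, and a gene was counted as different at a ratio of at least 2 with the brighter array at 200 or more. As a yardstick of probe noise only, log2 ratios of probe sets that share a gene had a median SD of 0.35 in MyoD-null limb over WT limb (the limb pair), 0.32 in the back array labelled Myf5-null over WT back (the back pair) and 0.35 in WT limb over WT back, over genes with 2 or more probe sets at 100 or more; this is called the probe spread below.

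Troponin sits on the thin filament and makes striated muscle contract in response to calcium. Troponin C binds the calcium, troponin I holds the actin and myosin interaction off until calcium arrives, and troponin T ties the complex to tropomyosin. Each subunit has separate genes for slow and fast skeletal fibres, and troponin I and T each have a further cardiac gene. In embryonic skeletal muscle the cardiac troponin T gene Tnnt2 is known to be active for a time, whereas Tnni3 is known as a gene of the heart.

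The targeted genes and tissue markers were read before the troponins. Myod1 had a signal of 688 in MyoD-null limb, against 1438 in WT limb, so it was lower there but stayed well above the floor of 100. In the same pair Myf5 was higher, with 1019 in MyoD-null limb against 506 in WT limb. Myf5 had 583 in the back array labelled Myf5-null, against 508 in WT back, so that array does not show its genotype and is named by its label throughout. The labels do not say which part of each gene the alleles lack or where the probes lie. All 10 skeletal muscle markers were at 100 or more in all 4 arrays. Summed over markers at 100 or more, here and below, their signal was 12407 in MyoD-null limb, 18328 in WT limb, 22799 in the back array labelled Myf5-null and 37717 in WT back. These sums are ordered as most troponin genes are below, and fewer muscle cells and less RNA per muscle cell cannot be told apart. Single markers did not all keep the order of the sums. Ckm was brightest in WT limb, and Des was brighter in MyoD-null limb than in WT limb. The summed signal of 5 cartilage markers was 15252, 12581, 3119 and 13322, with the arrays listed as for the muscle markers. That of 4 liver markers lay between 0 in MyoD-null limb and 2652 in WT back, and that of 4 nerve markers between 649 and 1306. For 6 smooth muscle markers it lay between 23451 in MyoD-null limb and 40936 in WT back, nearly all of it from Acta2 (22811 and 38917). Of these 6, Myh11 and Cnn1 were under 100 in all 4 arrays. The Acta2 probe set carries a name ending _s_at, which marks probes that may also bind other transcripts. Another Acta2 probe set had both limb arrays under 100 and a log2 ratio of -0.02 in the back pair. The level of Acta2 itself is therefore uncertain. The part of these other tissues in the troponin values was not tested. The ratio of the 3 prime to the 5 prime Gapdh control signal was well above 1 in all 4 arrays and also moved with the groups. It was 8.06 in MyoD-null limb against 12.2 in WT limb, and 9.46 in the back array labelled Myf5-null against 6.45 in WT back. The same ratio of the beta-actin control was 3.86 against 6.88 in the limb pair, and 4.28 against 3.20 in the back pair. What these ratios contribute to the troponin values was not tested either.

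Promoter windows, 250 bases before to 50 after the start site, were at hand from RefSeq (GRCm38.p6) for 6 of the 8 genes, in 8 windows. The windows below belong to the slow and the fast gene with the lowest ratio in MyoD-null limb, Tnnt1 and Tnnc2, and to the cardiac pair, of which Tnnt2 was bright and Tnni3 stayed under 100 in every array. They lie at chr7:4515926-4516225 on the minus strand, chr2:164779685-164779984 on the minus strand, chr1:135836084-135836383 on the plus strand (the upstream of 2 windows of Tnnt2) and chr7:4522479-4522778 on the minus strand. Each is printed 5′ to 3′ along its gene, with every E-box, CANNTG, the motif bound by MyoD and Myf5, in capitals.
Tnnt1: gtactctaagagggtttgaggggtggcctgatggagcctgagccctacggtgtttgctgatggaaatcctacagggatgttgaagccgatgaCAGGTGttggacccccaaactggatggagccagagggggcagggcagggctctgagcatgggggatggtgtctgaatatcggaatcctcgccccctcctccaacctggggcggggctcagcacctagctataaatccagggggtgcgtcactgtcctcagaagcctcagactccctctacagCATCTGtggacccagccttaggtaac
Tnnc2: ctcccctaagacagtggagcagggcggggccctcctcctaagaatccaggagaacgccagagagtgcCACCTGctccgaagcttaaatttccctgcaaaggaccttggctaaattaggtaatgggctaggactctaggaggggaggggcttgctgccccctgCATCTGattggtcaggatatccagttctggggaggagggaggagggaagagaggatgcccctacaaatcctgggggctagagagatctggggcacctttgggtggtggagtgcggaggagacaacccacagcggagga
Tnnt2: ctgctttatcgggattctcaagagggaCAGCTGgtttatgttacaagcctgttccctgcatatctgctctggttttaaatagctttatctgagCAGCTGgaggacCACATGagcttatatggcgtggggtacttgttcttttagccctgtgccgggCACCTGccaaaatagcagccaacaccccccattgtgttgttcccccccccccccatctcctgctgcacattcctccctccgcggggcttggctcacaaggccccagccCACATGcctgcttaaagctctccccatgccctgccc
Tnni3: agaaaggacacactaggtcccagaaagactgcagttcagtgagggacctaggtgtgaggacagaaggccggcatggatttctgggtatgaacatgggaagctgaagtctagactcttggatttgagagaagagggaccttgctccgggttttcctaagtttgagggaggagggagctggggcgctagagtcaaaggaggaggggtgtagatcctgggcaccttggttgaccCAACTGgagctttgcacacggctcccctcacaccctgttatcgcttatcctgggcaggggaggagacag

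The pattern CANNTG reads the same on both strands, so the search covers both. It occurs 2 times in the window of Tnnt1, 2 times in that of Tnnc2, 5 times in that of Tnnt2 and 1 time in that of Tnni3. Of the 32851 windows of all genes, 72.3% hold at least 1 E-box and 2.10% hold 5 or more. The symmetric form CAGCTG, counted among the E-boxes, is in 16.3% of all windows. It occurs 2 times in this Tnnt2 window, at positions -223 and -157 from the start site. It also occurs 1 time in each window of Tnni1, but these windows overlap and the site is the same one. The core CATTCC of the M-CAT element, known from the chicken cardiac troponin T promoter, was searched on both strands. It is in 14.7% of all windows, and among the troponins in the Tnnt2 window shown and in that of Tnnc1. Such matches describe letters in a window and do not show binding.

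**Figure D1:**
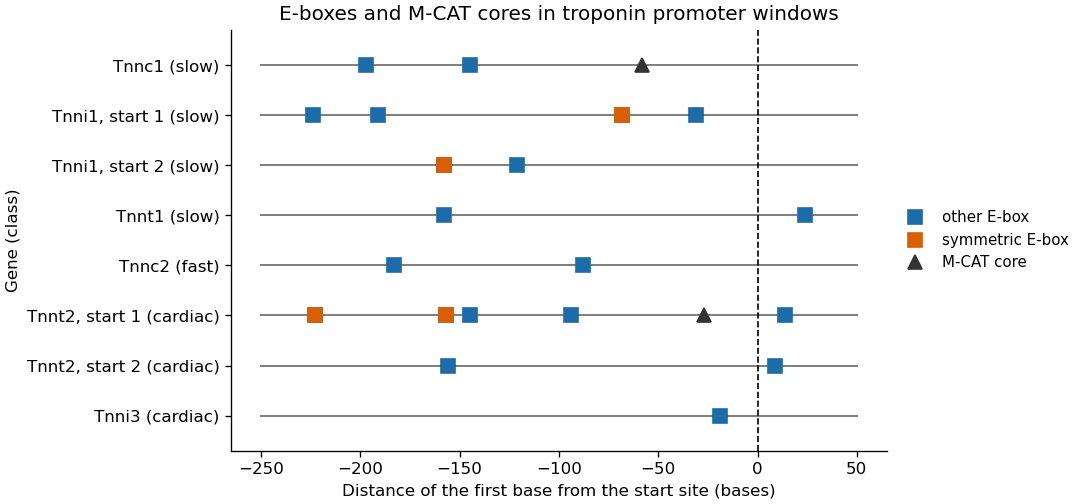
E-boxes and M-CAT cores in the 8 troponin promoter windows, by distance in bases of the motif's first base from the start site (dashed line); orange squares are the form CAGCTG, blue squares other E-boxes, triangles CATTCC on either strand. The Tnnt2 window at start 1 holds 5 E-boxes, and that of Tnni3 holds 1. The windows of Tnni1 overlap, and the E-boxes drawn at start 2 are among those drawn at start 1.

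Of the 8 genes, 7 were at 100 or more in all 4 arrays, and all 7 were brightest in WT back. The dimmest array was MyoD-null limb for 6 of them, and WT limb for Tnnt2. For 4 genes, Tnni1, Tnnt1, Tnnc2 and Tnni2, the order from high to low was WT back, the back array labelled Myf5-null, WT limb and MyoD-null limb. Tnnc1 and Tnnt3 had WT limb ahead of the back array labelled Myf5-null. Of the 21 steps between neighbours in these orders, 8 were no wider than the widest probe spread of 0.35, so their order is not settled. In Tnnc1 the steps from WT limb to the back array labelled Myf5-null (0.06) and from there to MyoD-null limb (0.33) were among them, and so was the step between the back array labelled Myf5-null and WT limb in Tnnt1 (0.24), Tnnc2 (0.15) and Tnni2 (0.28). The remaining 3 were the top step of Tnni2 (0.22), the bottom step of Tnnt3 (0.00) and that of Tnnt2 (0.04). Tnni1 was the gene in which all 3 steps were wider. Signals of different probe sets cannot be set against each other, so which isoform was most abundant in a sample is not given by these values.

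**Figure D2:**
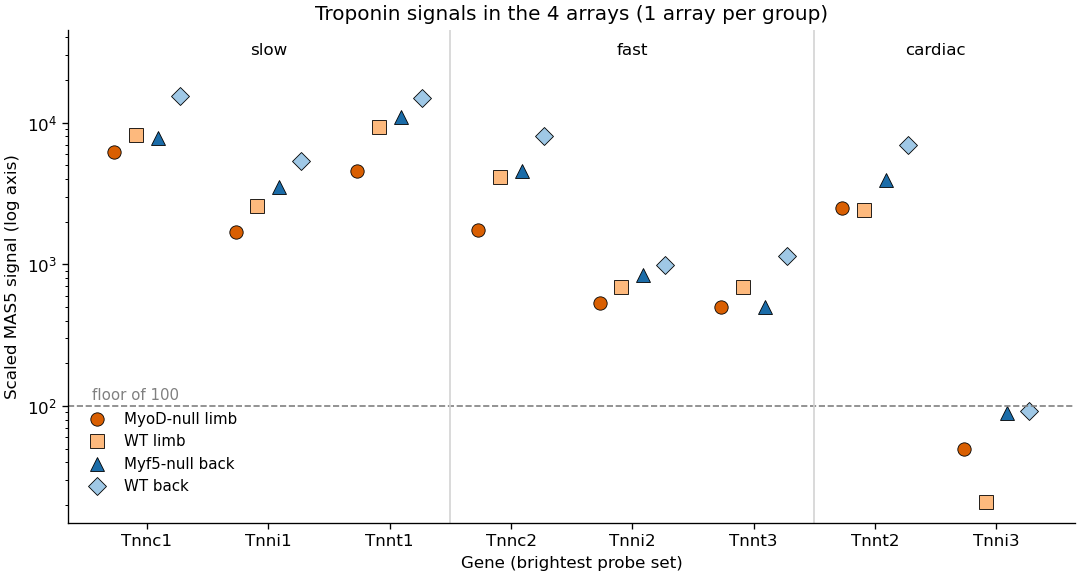
Scaled MAS5 signal (log axis) of the brightest probe set of each troponin gene in the 4 arrays, 1 point per array; the dashed line is the floor of 100. WT back is the highest point for each of the 7 genes above the floor, and the 4 points of Tnni3 lie under it; heights should be compared within a gene only.

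Troponin C, the calcium sensor, was lower in both mutant arrays for both isoforms. Slow and cardiac Tnnc1 had a signal of 6204 in MyoD-null limb, against 8166 in WT limb, and 7817 in the back array labelled Myf5-null, against 15301 in WT back. Fast Tnnc2 had 1756 in MyoD-null limb, against 4103 in WT limb, and 4549 in the back array labelled Myf5-null, against 8079.6 in WT back. Each gene thus had its lowest array in MyoD-null limb and its highest in WT back. The 2 isoforms differed in how far they were apart in the limb: Tnnc2 stood at 42.8% of its WT signal and Tnnc1 at 76.0%. In the back they stood at 56.3% for Tnnc2 and 51.1% for Tnnc1.

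Troponin I, the inhibitory subunit, was read from 5 probe sets, of which 3 were at 100 or more in all arrays and those of Tnni3 and 1 of the 3 of Tnni2 stayed under 100. Slow Tnni1 had 1681 in MyoD-null limb, against 2577 in WT limb, and 3488 in the back array labelled Myf5-null, against 5344 in WT back. It stood at 65.2% of WT in the limb and at 65.3% in the back, the most alike pair of ratios among the 7 genes. Fast Tnni2 had 529 in MyoD-null limb, against 694 in WT limb, and 844 in the back array labelled Myf5-null, against 979.7 in WT back, by its brightest probe set. The second probe set of Tnni2 had 315 in MyoD-null limb, against 424 in WT limb, and 273 in the back array labelled Myf5-null, against 605 in WT back. Both probe sets gave the same picture in the limb, at 76.3% and 74.3% of WT, but not in the back, at 86.1% and 45.1%. The brightest probe set carries a name (ending _x_at) that marks probes which may also bind other transcripts, and the value of Tnni2 in the back is therefore uncertain. Cardiac Tnni3 had 49.3 in MyoD-null limb and 21.1 in WT limb, and 88.6 in the back array labelled Myf5-null and 92.4 in WT back, all under the floor.

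Troponin T, the anchor to tropomyosin, had isoforms whose mutant and WT signals differed to unlike extents at both sites. Slow Tnnt1 had 4567 in MyoD-null limb, against 9319 in WT limb, and 11019 in the back array labelled Myf5-null, against 14849 in WT back. It was at 49.0% of WT in the limb and at 74.2% in the back. Fast Tnnt3 had 495 in MyoD-null limb, against 688 in WT limb, and 496 in the back array labelled Myf5-null, against 1148 in WT back. This is the opposite order of the 2 sites, with 72.0% of WT in the limb and 43.2% in the back. Cardiac Tnnt2 had 2482 in MyoD-null limb, against 2416 in WT limb, and 3911 in the back array labelled Myf5-null, against 6989 in WT back. A second probe set of Tnnt2 gave 2179 in MyoD-null limb, against 2410.4 in WT limb, and 3668 in the back array labelled Myf5-null, against 7048 in WT back. The 2 limb arrays were therefore close in both probe sets, at 103% and 90.4% of WT, while the back arrays were apart in both, at 56.0% and 52.0%. The last probe set of Tnnt2 was under 100 in all 4 arrays. The brightest probe set of Tnnt2, like that of Tnni2, carries a name ending _x_at.

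MyoD-null limb was compared with WT limb to ask how the muscle of the limb differs in embryos labelled MyoD-null. The slow troponin T gene Tnnt1 and the fast troponin C gene Tnnc2 were at least 2-fold lower, with log2 ratios of -1.03 and -1.22. These are 2 of the 7 genes above the floor, where 6.64% of the 11344 genes at 200 or more in either array were at least 2-fold lower. No troponin gene was at least 2-fold higher, a call that 2.94% of those genes had. Below 0 were 6 of the 7, against 51.1% of those genes, and the median was -0.47, against -0.01. The slow genes had a median of -0.62, with a range of -1.03 to -0.40, and the fast genes one of -0.47, with a range of -1.22 to -0.39, so the classes overlapped. The other four lay between -0.62 for Tnni1 and -0.39 for Tnni2, beyond the probe spread of 0.35. Cardiac Tnnt2 stood apart from both classes at 0.04, with -0.15 in its second probe set, both within the probe spread.

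The back array labelled Myf5-null was compared with WT back to ask the same of the back, with the limit that Myf5 itself was not lower in it. All 7 troponin genes above the floor were below 0, against 48.0% of 11633 genes, with a median of -0.83 against 0.02. Fast Tnnt3 was at least 2-fold lower at -1.21, 1 of 7 genes where the share over all genes was 3.13%. Its ratio was at percentile 1.65 of those genes. None of the 7 was at least 2-fold higher, where the share over all genes was 6.95%. Next came Tnnc1 at -0.97, Tnnt2 at -0.84 (-0.94 in its second probe set) and Tnnc2 at -0.83, then Tnni1 at -0.62 and Tnnt1 at -0.43. Tnni2, at -0.22, was the single gene within the probe spread of 0.32, and its second probe set gave -1.15. The slow genes had a median of -0.62 and the fast genes one of -0.83, and the ranges of the classes overlapped again.

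WT limb was compared with WT back to show how the 2 sites differ without a mutation; it shares each WT array with 1 of the comparisons above and is not independent of them. All 7 genes were lower in WT limb, against 48.6% of 11444 genes, and the median was -0.91 against 0.02. At least 2-fold lower were Tnnt2 at -1.53 and Tnni1 at -1.05, 2 of 7 genes where the share over all genes was 4.47%. None was at least 2-fold higher, against 6.76% of all genes. The ratio of Tnnt2 was at percentile 0.961, and its second probe set gave -1.55. The other five lay between -0.98 for Tnnc2 and -0.50 for Tnni2, and all 7 were beyond the probe spread of 0.35. Under quantile normalization and under loess 4 genes were at least 2-fold lower.

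**Figure D3:**
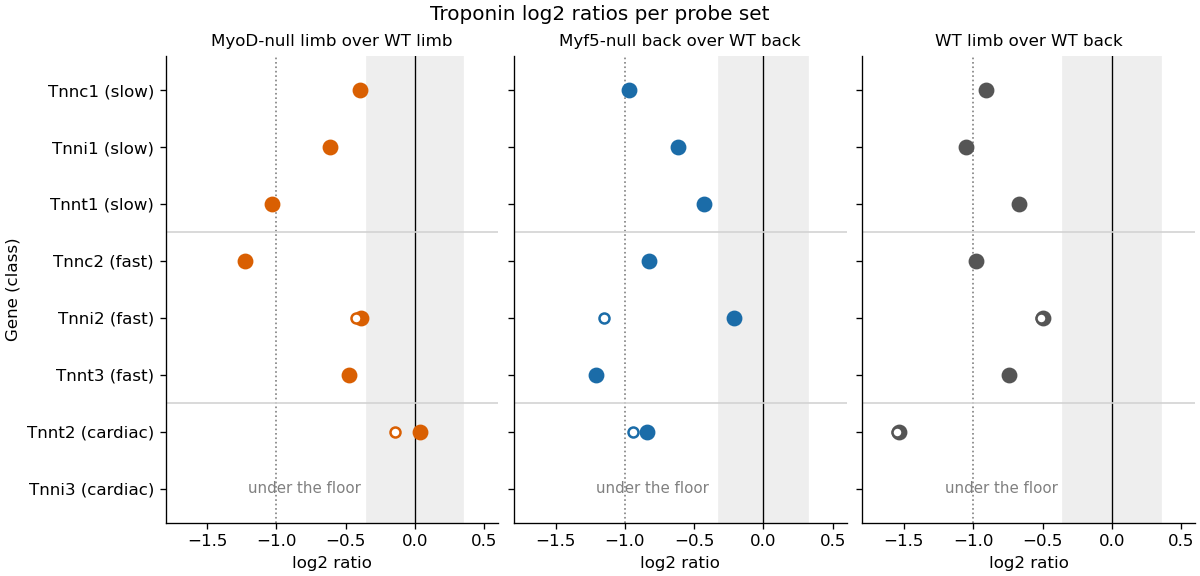
Log2 ratios of the troponin genes in the 3 comparisons, filled points for the brightest probe set and open points for a second one; grey bands are the median SD between probe sets of a gene, the dotted line marks a ratio of 2-fold lower. In MyoD-null limb Tnnc2 and Tnnt1 lie left of that line and Tnnt2 near 0, while in the back Tnnt3 and the second Tnni2 probe set lie left of it.

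Setting the slow against the fast gene of the same subunit asks whether a whole fibre-type class moved, and the difference of their log2 ratios does not change with a linear scaling of the arrays. No single direction held over the subunits. In MyoD-null limb the difference of slow minus fast was 0.83 for troponin C, where the fast gene was lower by more, but -0.56 for troponin T, where the slow gene was lower by more, and -0.23 for troponin I. In the back array labelled Myf5-null it was 0.78 for troponin T, the reverse of the limb, -0.14 for troponin C, and -0.40 for troponin I with the brightest probe set of Tnni2 or 0.53 with the second. Between the WT sites troponin C and T gave 0.07 each, and troponin I gave -0.56. The spread expected of a difference from the probe spread is 0.49 in the limb pair, 0.46 in the back pair and 0.50 between the WT sites, so the differences past it are those of troponin C and T in the limb, troponin T in the back and troponin I between the sites, with the second Tnni2 probe set also past it in the back. The limb ratio minus the back ratio was -0.60 for Tnnt1, -0.40 for Tnnc2, -0.18 for Tnni2 and 0.00 for Tnni1, and 0.57 for Tnnc1, 0.74 for Tnnt3 and 0.88 for Tnnt2. Slow and fast genes thus stood on both sides of 0 (0.72 for the second probe set of Tnni2), and with 1 array per group these differences were not tested.

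The cardiac troponin T gene was also set against the skeletal ones. Tnnt2 minus Tnnt1 was 1.07 in MyoD-null limb, a 2.10-fold gap between the ratios of the 2 genes, and -0.41 in the back array labelled Myf5-null. Tnnt2 minus Tnnt3 was 0.51 and 0.37. Between WT limb and WT back both differences were negative, at -0.86 against Tnnt1 and -0.79 against Tnnt3.

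**Figure D4:**
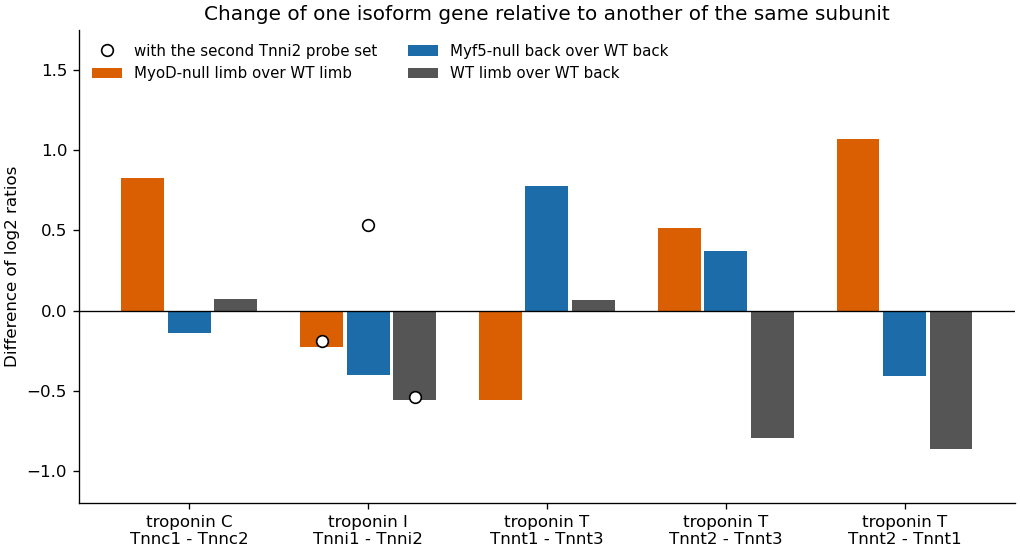
Difference between the log2 ratios of 2 isoform genes of one subunit (first gene minus second), a bar per comparison; open circles use the second probe set of Tnni2. The troponin T bars point in opposite directions in the 2 mutant pairs, at -0.56 and 0.78, and the circle for the back, at 0.53, lies on the other side of 0 from its bar at -0.40.

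Heart markers were read beside the cardiac isoforms. Of 10 listed, 9 have a probe set, and 2 were at 100 or more in MyoD-null limb, 6 in WT limb, 8 in the back array labelled Myf5-null and 7 in WT back. Their summed signal was 491 in MyoD-null limb, 1244 in WT limb, 1356 in the back array labelled Myf5-null and 1739 in WT back. Members of the list went both ways. Of 7 heart markers measured in the limb pair 6 were below 0, with a median of -0.52. The limb ratios of Myh6, Nppa, Mybpc3, Tbx20, Ryr2 and Gata4 are bounds, with an array under 100 set to that floor. Only Nkx2-5, at -0.32, was at 100 or more in both limb arrays, so the limb count and median rest mostly on bounds. The 8 in the back pair had a median of -0.19, 5 of them lying below 0 and 3 above it. The back ratio of Myl7 is a bound too. For comparison, 51.1% of all genes were below 0 in the limb pair and 48.0% in the back pair. The cardiac myosin gene Myh6 had 139 in the back array labelled Myf5-null, against 461 in WT back. The natriuretic peptide gene Nppa had 109.6 in the same array, against 369.9 in WT back. The heart transcription factor gene Nkx2-5 went the other way, with 414 in the back array labelled Myf5-null, against 226 in WT back, and so did the natriuretic peptide gene Nppb, with 233 against 129. The atrial light chain gene Myl7 had 112 in the back array labelled Myf5-null, against 87.4 in WT back, where Tnni3 was under 100 as well. Myh6 and Nppa were thus brightest in WT back, as Tnnt2 was, whereas Nkx2-5 was dimmest there. The part of heart tissue in the values of Tnnt2 was not tested.

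The partners of troponin on the thin filament went the same way in most cases, with a gene under 100 in one array entered at its bound, here and for the fibre types. Of 12 such genes measured in the limb pair, 9 were below 0, with a median of -0.39 and none past 2-fold in either direction. Of 11 in the back pair, 10 were below 0, with a median of -0.45 and 2 at least 2-fold lower. Skeletal actin Acta1 had 6172 in MyoD-null limb, against 9592 in WT limb, and 18392 in the back array labelled Myf5-null, against 27605 in WT back (-0.64 and -0.59). Tmod1, which caps the pointed end of the filament, was at -0.99 and -1.03. The tropomyosin gene Tpm1, whose product troponin T binds, was at -0.05 and -0.32, although its other probe sets ranged from -1.29 to 0.51 and from -0.18 to 0.79, so its direction is unsettled. Tpm2, a further tropomyosin gene, was at -0.46 and 0.30, but at -0.29, -0.19 and -0.90 in other probe sets of Tpm2 in the back. Between WT limb and WT back 10 of 12 partners were lower, 4 of them at least 2-fold, with a median of -0.62. Over all genes 48.6% were lower in WT limb, and 4.47% at least 2-fold.

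Other genes of the fibre types were read for the same question. Slow-fibre genes other than troponins had a median of -0.34 over 4 measured genes in the limb pair, with 2 below 0, 2 above and 0 at least 2-fold lower, and of -1.02 over 6 in the back pair, with 6 below 0 and 3 at least 2-fold lower. Over all genes 51.1% were below 0 in the limb pair and 48.0% in the back pair, and 6.64% and 3.13% were at least 2-fold lower. The 2 slow-fibre genes above 0 in the limb were Myl3 at 0.15 and Atp2a2 at 0.10, and their direction depends on the probe set. In the limb another Myl3 probe set gave -1.63, and those of Atp2a2 ranged from -0.29 to 0.78. In the back Myl3 was at -0.91 but at -2.88 and -2.13 in other probe sets. Atp2a2 was at -0.18 there, with others from -1.45 to -0.17. The slow myosin gene Myh7 was at -0.77 in the limb and -1.13 in the back. Fast-fibre genes had a median of -0.27 over 10 genes in the limb pair, with 7 below 0, and of -0.67 over 11 in the back pair, with 8 below 0. In the limb pair 0 were at least 2-fold lower, against 6.64% of all genes, and 1 was higher, against 2.94%. That gene was the adult fast myosin gene Myh1, with 1256 in MyoD-null limb, against 322 in WT limb, a log2 ratio of 1.96 (1.72 in its second probe set). Myh1 was at -0.18 in the back pair, where its second probe set gave -1.43. The brightest probe set of Myh1 also carries a name ending _x_at. The 1 gene at least 2-fold lower in the back pair was the perinatal myosin gene Myh8, at -1.57 there and -0.08 in the limb. The fast light chain gene Mylpf was at -0.75 in the limb and -0.67 in the back, and the embryonic myosin gene Myh3 at -0.96 and -0.70. Between the WT sites the slow list had a median of -1.68 over 6 genes, with Myl2 and Mb at the same bounds, and the fast list one of -0.93 over 11. The skeletal muscle markers had medians of -0.57, -0.76 and -0.95 in the 3 comparisons, and the myogenic regulators -0.10, -0.27 and -0.26. Of the regulators, 5 of 8, 5 of 8 and 6 of 8 were below 0, against 51.1%, 48.0% and 48.6% of all genes.

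**Figure D5:**
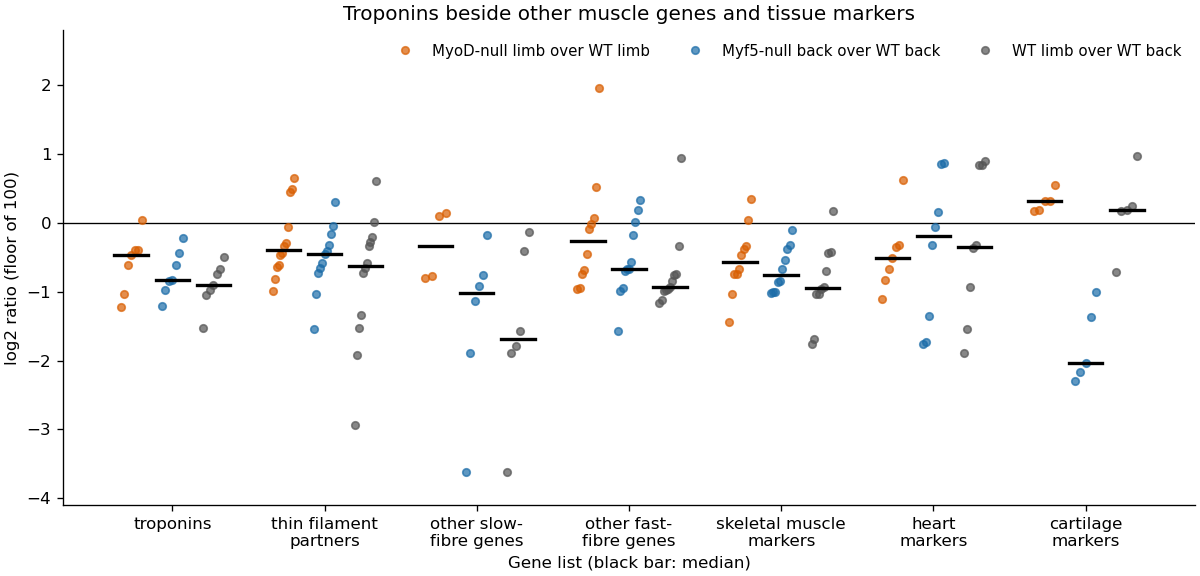
Log2 ratios with a floor of 100 for the troponins and 6 other gene lists, 1 point per gene and 3 columns per list, one for each comparison; black bars are medians. The troponin medians of -0.47, -0.83 and -0.91 lie near those of the skeletal muscle markers, at -0.57, -0.76 and -0.95.

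Relative to the median of the skeletal muscle markers, a setting added after the data were seen, the troponins centred near 0, with medians of 0.09, -0.07 and 0.04 in the 3 comparisons. Of the single genes, those beyond the probe spread in MyoD-null limb were Tnnc2 at -0.66 and Tnnt1 at -0.46 below the markers and Tnnt2 at 0.61 above them. In the back array labelled Myf5-null they were Tnnt3 at -0.45, Tnni2 at 0.54 (by the probe set that the second one goes against) and Tnnt1 at 0.33. Between the WT sites they were Tnnt2 at -0.59 and Tnni2 at 0.45.

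The genes whose signals ran most like each class over the 4 arrays were sought among 9061 genes at 200 or more in all arrays, by the root mean square distance of centred log2 signals. Nearest to the mean of the 3 slow genes were Mylpf at 0.05, Mymk and Alpk3 at 0.07 and Rtn2 at 0.07. Mymk, the membrane activator of myoblast fusion, had 603 in MyoD-null limb, against 956 in WT limb, and 1081 in the back array labelled Myf5-null, against 1953 in WT back. Nearest to the mean of the 3 fast genes were Cdkn1a at 0.07, Rtn2 at 0.07, Synpo2l at 0.08 and Ptges3l at 0.09. Nearest to Tnnt2 were Thbs2 at 0.08, Itgb1bp2 at 0.09, Myl3 at 0.10 and Angptl1 at 0.10. Myl3, a slow and ventricular light chain gene, had 324 in MyoD-null limb, against 293 in WT limb, and 538 in the back array labelled Myf5-null, against 1012 in WT back, while another of its probe sets gave a log2 ratio of -1.63 in the limb. With 4 arrays such likeness is a description, and probe sets of many genes can run alike over so few points.

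In the genome the troponin I and T genes lie in 3 pairs, and the values of each pair are given side by side. On chromosome 7 the slow gene Tnnt1 and the cardiac gene Tnni3 are neighbours with 0 annotated genes between them. Tnnt1 was above the floor in all 4 arrays and Tnni3 in none. On chromosome 1 slow Tnni1 and cardiac Tnnt2 have 1 gene, Lad1, between them, and their ratios were -0.62 and 0.04 in the limb pair and -0.62 and -0.84 in the back pair, a gap wider than the probe spread in the limb and narrower in the back. The fast genes Tnni2 and Tnnt3, also on chromosome 7, have 2 genes between them, Lsp1 and Prr33. Their ratios were -0.39 and -0.47 in the limb pair, and -0.22 (or -1.15 by the second probe set) and -1.21 in the back pair. The troponin C genes lie alone, Tnnc1 on chromosome 14 and Tnnc2 on chromosome 2.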

How the data were processed

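The authors deposited linear intensities, with 1 value for each probe set of each array, which MAS5 produced per the submitters' processing notes from cRNA of 6 µg total RNA per the labels' protocols. The deposited columns share a 2% trimmed mean (1477 to 1479), so each array had already been scaled. Detection calls and scanner files were not used here. Groups came from the sample titles. Arrays were rescaled to a common 2% trimmed mean of 500 over probe sets that are not controls, and signals under 100 were set to 100. At that scale 56.0% to 63.7% of probe sets reached 100, and the floor compresses ratios of dim genes.

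Log2 ratios were taken between arrays with Python 3.11.15, numpy 2.4.6 and pandas 2.3.3. Probe sets with 1 gene symbol were named through the platform annotation (0 symbols needed an update through RefSeq). The probe set brightest on average (log2, 4 arrays) stood for its gene. The named genes are all 8 troponins with every probe set, up to 5 members of each further list (thin filament, fibre-type and regulator genes), tissue markers, and the 4 nearest genes per class. Members and lists were chosen with earlier results of these data known. Counting was tested on simulated data. The alternatives were 8 planned settings of scaling, floor and probe set choice and 1 added later.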

Additional observations from a re-analysis of the deposited data

Results flagged for a closer look

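None of the 7 troponin genes above the floor lay on opposite sides of 0 in the 2 mutant pairs beyond the probe spread. Among the thin filament and fibre-type genes read beside them, 4 did. The share of all genes that do so was not computed, so these counts do not set either set of genes apart. With 1 array per group the differences were not tested. Nebulin, Neb, was at 0.49 in MyoD-null limb but -1.54 in the back array labelled Myf5-null, a difference of 2.04. Its limb signals were dim, at 242 in MyoD-null limb against 172 in WT limb. The filament nucleator gene Lmod3 was at 0.65 and -0.72, a difference of 1.37, with dim limb signals of 219 in MyoD-null limb against 140 in WT limb. Cap2, an actin regulator, was at 0.44 and -0.45, a difference of 0.90, with -0.42 in a second probe set in the limb. Parvalbumin, Pvalb, was at -0.94 and 0.33, a difference of -1.27, in which each ratio is bounded by an array under 100. Its back ratio of 0.33 is barely past the probe spread of 0.32.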

How the results depend on the processing

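No paired analysis was possible because each group has 1 array. Of the 405 values recomputed under alternatives, 345 moved by less than the probe spread, or by less than 1.5 times for a count. Many had little or no room to move, so that share does not measure robustness. The 7 troponin genes had signals of 495 or more in every array, above both alternative floors of 50 and 200. The deposited arrays already shared a trimmed mean, so leaving out the rescaling hardly changed their ratios. Slow minus fast differences cannot change when centred on the markers. Below 0 under every setting that gave a value were Tnnc2 in all 3 comparisons, Tnni1 and Tnnt1 in the limb pair, Tnnc1, Tnnt3 and Tnnt2 in the back pair, and Tnni1 and Tnnt2 in WT limb over WT back. The other ratios, apart from Tnnt2 in the limb pair, turned positive only when centred on the skeletal muscle markers. Tnnt2 in the limb, at 0.04, was below 0 under quantile normalization, loess and as a median over probe sets. With quantile normalization and with loess, 4 troponin genes were at least 2-fold lower in WT limb than in WT back, against 2. A setting that left out probe sets with suffixed names removed 4 of the 7 genes (Tnni1, Tnnt1, Tnnt3, Tnnt2). It also left out names ending _a_at, as those of Tnni1, Tnnt1 and Tnnt3 do. That ending marks several transcripts of the same gene, not binding to other genes. Under this setting 3 genes were below 0 in each comparison, with 1 past 2-fold in MyoD-null limb and 0 in WT limb over WT back. The subunit contrasts of troponin I and T could not be made there. Centred on the skeletal muscle markers, the median of the troponins was 0.093 in MyoD-null limb, -0.072 in the back array labelled Myf5-null and 0.040 in WT limb over WT back, with 3, 4 and 3 genes below 0 and 0 genes at least 2-fold lower in each. Over all genes, the 334 higher and 753 lower in MyoD-null limb became 451 and 537 under quantile normalization, and the 808 higher and 364 lower in the back array labelled Myf5-null became 518 and 516. With a floor of 200 they became 115 higher and 181 lower, and 152 higher and 123 lower. Without rescaling they rose to 1129 higher and 2077 lower, and 2087 higher and 1231 lower. The number of arrays limits all of these values.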
